A study of Mus musculus with 9 samples.

Results

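The 36 genes described here act at the passage from G1 into S phase and in the copying of DNA. They were taken by name from a fixed list. No value entered that rule, but the list was chosen with earlier results of these data known. In the deposited table of 12550 genes 36 of 36 were present, and 36 of 36 passed the minimum mean signal of 20, as did 12541 genes in all. By role they comprise 4 regulators of S phase entry, 10 origin licensing genes, 4 genes of helicase activation, 9 of polymerases, clamp and clamp loader, 2 of Okazaki fragment maturation, 4 of nucleotide supply, and 3 of histone supply, chromatin assembly and uracil repair.

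Mouse embryonic fibroblasts (MEFs, strain C57Bl/6cJ) were reprogrammed toward induced pluripotent stem cells with plasmids for Oct4, Sox2, Klf4 and c-Myc, in embryonic stem cell medium with leukemia inhibitory factor. All 3 arms received these factors and a short hairpin RNA from a pretroSuper construct: against luciferase (the control, a gene absent from mice), against Hnrnpk, or against the transcript lincRNA-p21 of the gene Trp53cor1. Each arm was sampled on days 6, 9 and 12, with 1 library per arm and day, 9 libraries in all, each labelled as merged replicates. Each target has 1 hairpin arm, so effects of a hairpin other than loss of its target cannot be told apart from that loss, and the promoter driving the hairpin and the fate of single cells are not given in the sources used here.

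Cells commit to a round of DNA replication when cyclin E with its kinase and the E2F factors switch on the genes of S phase. In G1 the origin recognition complex, Cdc6 and Cdt1 load the Mcm2 to Mcm7 ring onto DNA, and Cdc45 and the GINS complex then turn the ring into the moving helicase. Polymerases with their sliding clamp copy both strands, while ribonucleotide reductase and thymidylate enzymes supply the nucleotides. Fibroblasts that reprogram are known to divide fast, and pluripotent cells carry high levels of these transcripts.

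The values are a normalized signal whose depth is unknown, so no counting error could be given. Whether they are scaled by gene length is not known here. Levels are therefore compared between libraries of 1 gene only, apart from the sums of marker lists. Differences are log2(signal + 10) values and understate the change of low genes. Hnrnpk had control values of 31243, 26944 and 23376 on days 6, 9 and 12 and values of 11349, 17016 and 12793 under its own hairpin, a fall of 0.997 (limma, adjusted p = 0.00824). Trp53cor1 had control values of 286.5, 237 and 250 and lincRNA-p21 arm values of 90.5, 122 and 97, a difference of -1.25 that did not pass the test (limma, adjusted p = 0.0603). Under the Hnrnpk hairpin it fell too, to 131, 137 and 119.5 (limma, adjusted p = 0.00752). All 12 fibroblast markers examined, among them Col1a1 and Thy1, were in the table, with a summed signal between 226273.5 and 404919.5 per library. Of 6 macrophage markers only Cd68 (120.5 to 780) and of 5 endothelial markers only Tek (2074 to 3141) were measured; the others were not analysed here. In bulk RNA, fewer cells of a type and less RNA per cell cannot be told apart.

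The change from day 6 to day 12 differed between the arms. In the control arm 35 of 36 genes were lower on day 12 than on day 6, with a median log2 difference of -0.79 and 24 genes lower by at least 1.5-fold. Of all genes, 52.8% were lower between those libraries, 19.5% by at least 1.5-fold, and the median was -0.04. In the Hnrnpk arm 32 of 36 were higher on day 12 than on day 6, with a median of 0.46 (46.8% of all genes were higher). In the lincRNA-p21 arm 20 were higher and 16 lower, with a median of 0.03 (47.1% of all genes were higher and 52.8% lower). From day 9 to day 12 most of the genes were lower in every arm, 36 of 36 in the control arm (median -0.47) and 31 of 36 in each knockdown arm (median -0.18 in both). Of all genes, 53.3% were lower at that step in the control arm, 54.9% in the Hnrnpk arm and 54.5% in the lincRNA-p21 arm. These are differences between single libraries, without a test.

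The control library of day 12 held the lowest of the 9 values for 27 of 36 genes, against 18.2% of all genes. A further 6 had their lowest value in the Hnrnpk library of day 6 (16.1% of all genes) and 3, namely Ccne2, E2f1 and E2f2, in the Hnrnpk library of day 12 (18.4%). The highest value was in the control library of day 6 for 14 genes (17.1% of all genes) and in the Hnrnpk library of day 9 for 11 (6.95%).

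**Figure D1:**
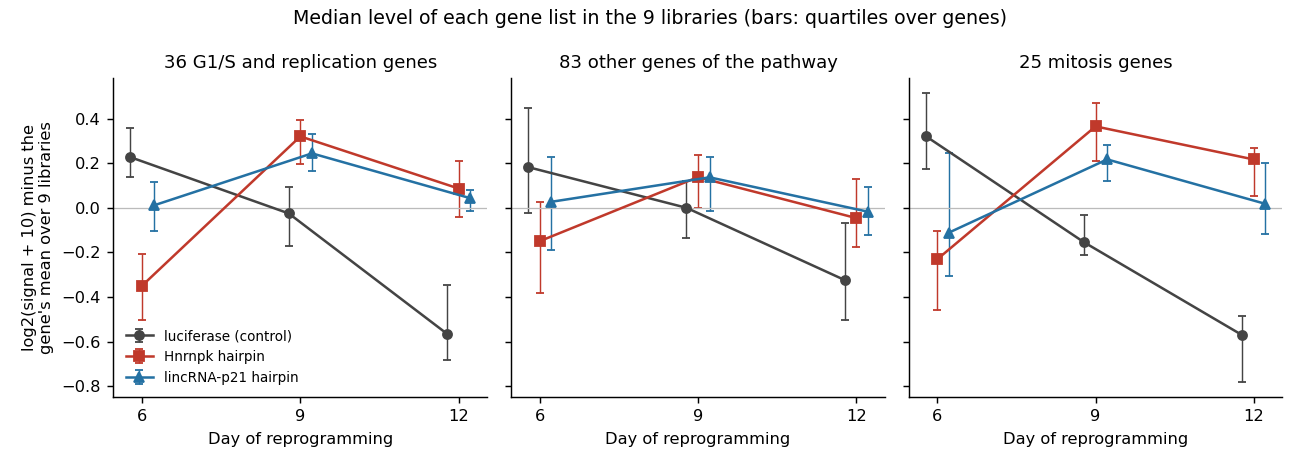
Median level of each gene list in the 9 libraries, as log2(signal + 10) minus the gene's own mean over the libraries; points are medians over genes, bars span the quartiles of the genes, and the x axis is the day. For the 36 genes the control arm goes from 0.23 on day 6 to -0.57 on day 12, while the Hnrnpk arm goes from -0.35 on day 6 to 0.32 on day 9 and 0.09 on day 12.

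Set against the control library of the same day, the genes changed sides. On day 6 all 36 were lower with the Hnrnpk hairpin, with a median difference of -0.58 and 18 lower by at least 1.5-fold, where 52.5% of all genes were lower, 9.39% by 1.5-fold. On day 9, 32 of 36 were higher (median 0.31, 50.8% of all genes). By day 12, 33 of 36 were higher, with a median of 0.65 and 21 higher by at least 1.5-fold, where 48% of all genes were higher, 11% by 1.5-fold. Below control on day 6 and above it on day 12 stood 33 of 36 genes, a pattern shown by 22.5% of all genes.

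With the lincRNA-p21 hairpin the same sequence appeared at a smaller size on day 6. There, 32 of 36 genes were lower than control (median -0.23, 47.2% of all genes lower) and 1, Pola1, was lower by at least 1.5-fold (5.59% of all genes). On day 9, 32 were higher (median 0.28, 52.6% of all genes), and on day 12 all 36 were higher (median 0.59, 50.2% of all genes), 19 of them by at least 1.5-fold (4.12% of all genes). The pattern of lower on day 6 and higher on day 12 held for 32 of 36 genes and for 21.1% of all genes. Both knockdown arms are set against the same 3 control libraries, so the control arm's own decline enters both comparisons.

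**Figure D2:**
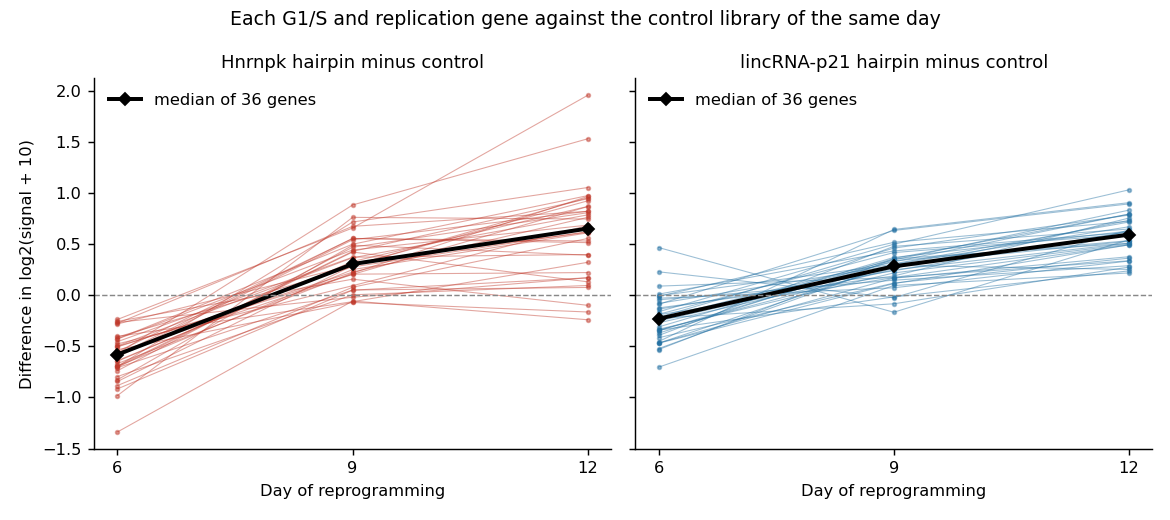
Difference in log2(signal + 10) of each of the 36 genes from the control library of the same day, on the y axis, against the day; thin lines are genes and the thick line their median. The medians move from -0.58 to 0.65 in the Hnrnpk arm and from -0.23 to 0.59 in the lincRNA-p21 arm.

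The day 6 and day 12 differences mostly have opposite signs, so they partly cancel in averages over the days. That change over the days also enters the error of the averages. Their median SE was 0.21 for the 36 genes and 0.13 for all genes. Over the 3 days 0 of 36 genes passed the test between the Hnrnpk and control arms in either direction (limma, adjusted p under 0.05), where 5.58% of all genes were called higher and 6.94% lower. At an unadjusted p under 0.05 there were 0 higher and 1 lower, beside 1730 higher and 1955 lower of all 12541 genes. The median difference was 0.16 beside 0.00 for all genes. Between the lincRNA-p21 and control arms 0 of 36 passed (limma), where 0.00797% of all genes were called higher and 0% lower. The median difference was 0.22, beside 0.02 for all genes, and 33 of 36 were above 0, beside 6748 of all 12541 genes. At an unadjusted p under 0.05 there were 0 of 36, beside 849 higher and 881 lower of all genes. Between the 2 knockdown arms 0 of 36 passed (limma), where 1.7% of all genes were called higher in the lincRNA-p21 arm and 1.56% lower. There, at an unadjusted p under 0.05, 2 of 36 were higher, beside 1349 higher and 1032 lower of all genes. The averages turned on day 6: without the day 6 libraries 22 of 36 genes were higher in the Hnrnpk arm than in the control arm (limma), without the control library of day 6 alone 10, and without the Hnrnpk library of day 6 alone 4. Calls over all genes moved too: there were 1570 with all libraries, and 25 to 3001 with libraries or days left out. The counts of the 36 genes are not set beside the share of all genes with the same libraries left out.

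The change of an arm's difference over time was tested as a slope, the log2 difference gained per 3 days in a model with arm, day and a linear arm by day term. With days evenly spaced, the estimate is set by the day 6 and day 12 libraries, and the day 9 libraries add to its error. Between the Hnrnpk and control arms 23 of 36 genes had a slope above 0 that passed the test (limma, adjusted p under 0.05) and 0 a slope below 0, where 5.06% of all genes were called upward and 4.3% downward. The median slope of the 36 genes was 0.61, that of all genes -0.01, and the range of the 36 was 0.08 to 1.10. At an unadjusted p under 0.05 there were 33 genes upward and 0 downward, beside 1852 upward and 1962 downward of all 12541 genes.

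These calls rest on few libraries. Without the control library of day 6 the count was 0 of 36 and the median slope 0.39, and without the Hnrnpk library of day 6 it was 0 of 36 and 0.36. Leaving out any 1 of the lincRNA-p21 libraries, or the whole lincRNA-p21 arm, leaves the median slope at 0.61 and takes away part of the error estimate; 0 of 36 and 0 genes in the whole table were then called (limma). Without the control library of day 12 the count was 22, without the Hnrnpk library of day 12 it was 28, and without the control or the Hnrnpk library of day 9 it was 32 or 33. Over all genes the count was 1173 with all libraries and ran from 0 to 2789 with 1 library left out. Where a control or Hnrnpk library was left out, the count of the 36 genes has no such share beside it.

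Among the regulators of S phase entry 1 of 4 was called. Ccne1, which encodes cyclin E1, the partner of Cdk2 at the G1 to S passage, had control values of 1434, 989.5 and 804 on days 6, 9 and 12 and Hnrnpk arm values of 1184.5, 1586 and 1429. It lay below control on day 6 and above it on the later days, with a slope of 0.55 (SE 0.12, limma adjusted p = 0.0384). Its paralog Ccne2, encoding cyclin E2, had the smallest slope of the 36, 0.08 (SE 0.12), and was not called.

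E2f1 and E2f2 encode activating E2F transcription factors, and these were the genes that stayed below control on each day in the Hnrnpk arm. E2f2 had control values of 857, 501.5 and 340, Hnrnpk arm values of 333, 482 and 286.5 and lincRNA-p21 arm values of 616.5, 620 and 495. The Hnrnpk and control ranges overlap, the day 6 gap is the wide one, and the average difference of -0.54 (SE 0.23) did not pass the test (limma, adjusted p = 0.153). The Hnrnpk arm was also below the lincRNA-p21 arm on each day, by an average of 0.66 (SE 0.23, limma adjusted p = 0.158).

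E2f1 had control values of 903, 689 and 653.5, Hnrnpk arm values of 621.5, 656 and 582.5 and lincRNA-p21 arm values of 875.5, 764.5 and 801. All 3 Hnrnpk libraries were below all 3 lincRNA-p21 libraries, a difference of 0.39 that did not pass the test (SE 0.12, limma adjusted p = 0.113). The difference between the Hnrnpk and control arms was -0.25 (SE 0.12, limma adjusted p = 0.182), and those ranges overlap. Neither E2F gene had a slope that passed: 0.55 for E2f2 (limma, adjusted p = 0.0965) and 0.18 for E2f1 (limma, adjusted p = 0.317).

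Origin licensing held the most calls, with 9 of 10 genes upward against control in the Hnrnpk arm: Orc1, Orc6, Cdc6 and Mcm2 to Mcm7. Orc1 (chromosome 4, 108579423 to 108614833, plus strand) encodes the largest subunit of the origin recognition complex. It had control values of 360, 256 and 185.5 on days 6, 9 and 12, Hnrnpk arm values of 239, 481 and 555.5 and lincRNA-p21 arm values of 338, 403 and 353.5. It was 1 of 5 genes with a higher value on day 12 than on day 9 in the Hnrnpk arm, and that last library was the highest of the 9. The slope was 1.05 (SE 0.14, limma adjusted p = 0.0171).

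Mcm5 (chromosome 8, 75109569 to 75128439, plus strand) encodes a subunit of the replicative helicase ring. This subunit gene had control values of 4415, 3344 and 2126.5, Hnrnpk arm values of 2721.5, 5505 and 4429.5 and lincRNA-p21 arm values of 3949, 4733 and 4360.5. On day 12 both knockdown libraries were about level with the control library of day 6, while the control library of day 12 was the lowest of the 9. The slope against control was 0.88 in the Hnrnpk arm (SE 0.15, limma adjusted p = 0.0237).

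The other ring subunits had slopes between 0.54 (Mcm6) and 0.76 (Mcm7). Mcm6 lies just inside the threshold (limma, adjusted p = 0.049). It had control values of 5511, 5602.5 and 4184, Hnrnpk arm values of 2916, 5802 and 4713 and lincRNA-p21 arm values of 4347, 5541 and 4940.5, so that the low Hnrnpk value of day 6 sets most of its slope. Cdc6, which brings the ring to the origin with Cdt1, had a slope of 0.77 (SE 0.14, limma adjusted p = 0.0237). Cdt1 itself, at 0.61 (SE 0.17), was not called (limma, adjusted p = 0.0646).

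Of the helicase activation genes 3 of 4 were called. Gins1 (chromosome 2, 150905400 to 150931280, plus strand), a subunit of the GINS complex, had control values of 1462.5, 1684.5 and 1047, Hnrnpk arm values of 1240, 2665 and 4097.5 and lincRNA-p21 arm values of 2026, 1500.5 and 1530.5. The Hnrnpk libraries of days 9 and 12 were above the other 7, and the lincRNA-p21 arm followed a different course from the Hnrnpk arm. Its slope against control was the largest of the 36 in the Hnrnpk arm, 1.10 (SE 0.17, limma adjusted p = 0.0196), and the smallest in the lincRNA-p21 arm, 0.04. Without the control library of day 12 the slope in the Hnrnpk arm was 0.66 and was not called.

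Gins2, which encodes another subunit of the same complex, lay just outside the threshold with a slope of 0.36 (limma, adjusted p = 0.0548). Mcm10 (chromosome 2, 4989714 to 5012791, minus strand) helps the helicase start and tethers polymerase alpha. Mcm10 had control values of 1624.5, 1195 and 742.5, Hnrnpk arm values of 1001, 1613.5 and 1439.5 and lincRNA-p21 arm values of 1254, 1537 and 1295.5. The control arm went from the highest of the 9 values to the lowest, and the slope in the Hnrnpk arm was 0.82 (SE 0.11, limma adjusted p = 0.018). Cdc45, the third part of the active helicase, had a slope of 0.65 (SE 0.11, limma adjusted p = 0.0237).

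At the fork, 5 of 9 genes of the polymerases, clamp and clamp loader were called: Prim1, Pcna, Rfc3, Rfc4 and Rpa2. Prim1 (chromosome 10, 128015168 to 128030037, plus strand) encodes the primase subunit that makes the RNA primers. Prim1 had control values of 688, 655 and 358.5, Hnrnpk arm values of 379, 803.5 and 704.5 and lincRNA-p21 arm values of 541, 789 and 603. The control library of day 12 and the Hnrnpk library of day 6 were the lowest of the 9. The slope was 0.90 (SE 0.11, limma adjusted p = 0.0167).

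Pcna, the sliding clamp, had a slope of 0.58 (SE 0.10, limma adjusted p = 0.0237), and the clamp loader subunits Rfc3 and Rfc4 had 0.70 and 0.82. The catalytic subunits of all 3 replicative polymerases were not called: Pola1 0.45, Pold1 0.39 and Pole 0.42 (limma, adjusted p = 0.0619, 0.0774 and 0.159). In these 3 genes the Hnrnpk arm was well below control on day 6, by 0.80, 0.71 and 0.70, and above it by 0.10, 0.08 and 0.13 on day 12.

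In Okazaki fragment maturation Fen1, the flap endonuclease, was called with a slope of 0.60 (SE 0.09, limma adjusted p = 0.0196), and Lig1, the ligase that seals the fragments, was not (0.53, SE 0.15, limma adjusted p = 0.065). In nucleotide supply 2 of 4 were called. These were Tyms, thymidylate synthase (0.72, SE 0.10, limma adjusted p = 0.018), and Tk1, thymidine kinase (0.72, SE 0.11, limma adjusted p = 0.0195). The ribonucleotide reductase subunits were not called: Rrm2 had a slope of 0.56 (limma, adjusted p = 0.0635) and Rrm1 of 0.22 (limma, adjusted p = 0.19).

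Of the last role 2 of 3 were called. Ung (chromosome 5, 114130386 to 114139323, plus strand), the glycosylase that removes uracil from DNA, had control values of 570.5, 346.5 and 252.5, Hnrnpk arm values of 284, 595 and 430.5 and lincRNA-p21 arm values of 394.5, 431.5 and 421.5. Its Hnrnpk library of day 9 was the highest of the 9 and that of day 6 close to the lowest, its slope was 0.86 (SE 0.22), and its adjusted p of 0.0489 (limma) lies just inside the threshold. Without the Hnrnpk library of day 6 that slope was 0.09. Slbp, which binds the stem loop of replication-dependent histone mRNAs, had a slope of 0.63 (SE 0.12, limma adjusted p = 0.0248). Chaf1a, the large subunit of chromatin assembly factor 1, had 0.43 and was not called (limma, adjusted p = 0.0696).

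**Figure D3:**
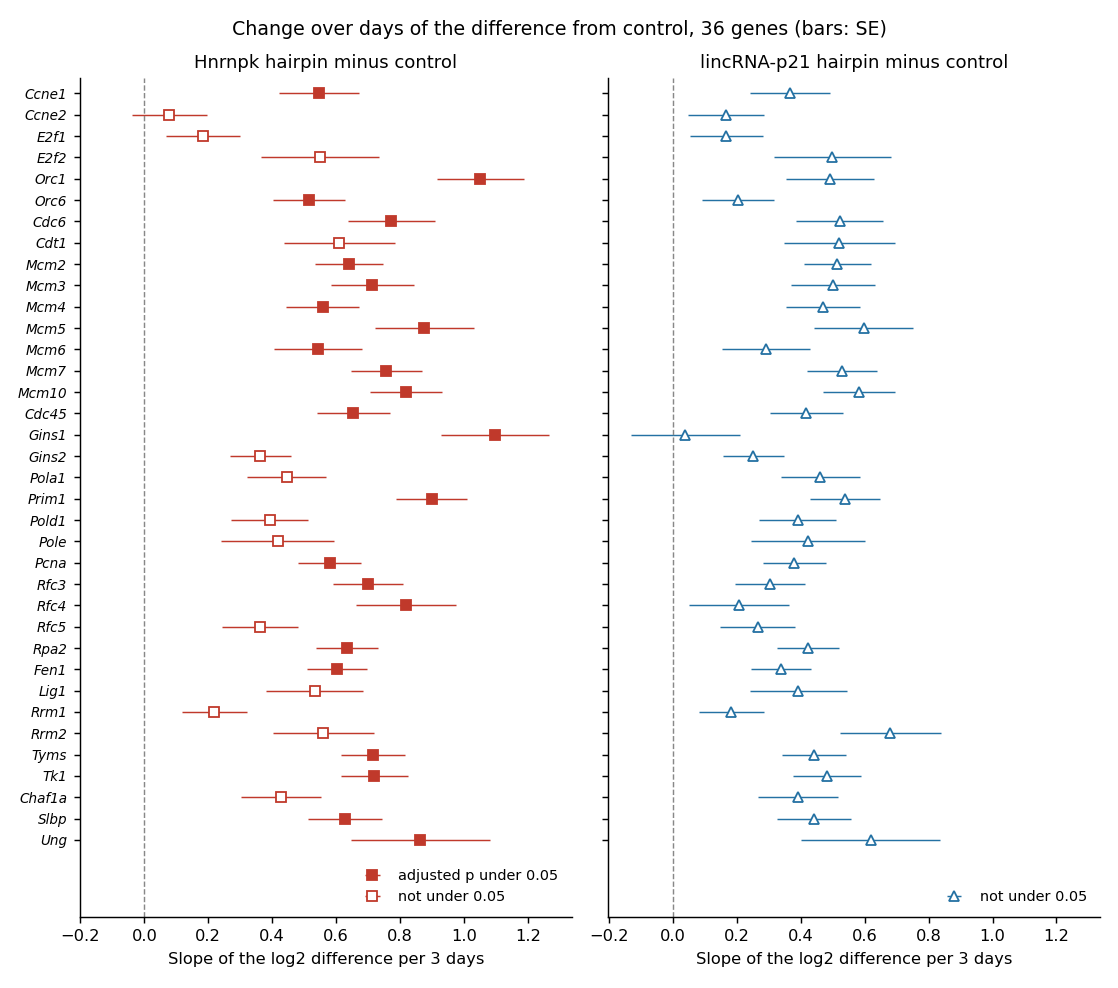
Slope of the log2 difference from control per 3 days for each of the 36 genes, with its SE as a bar; filled symbols have a limma adjusted p under 0.05. All 36 slopes are above 0 in both panels, 23 are filled in the Hnrnpk panel and 0 in the lincRNA-p21 panel. Of all 12541 genes, 6030 had a slope above 0 in the Hnrnpk arm and 6095 in the lincRNA-p21 arm.

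In the lincRNA-p21 arm all 36 slopes against control were also above 0, with a median of 0.42 and a range of 0.04 to 0.68, but 0 of 36 passed (limma, lowest adjusted p = 0.153). Of all 12541 genes, 6095 had a slope above 0, and their median slope was -0.01 for the whole set of 12541. Of all genes, 0% were called in either direction. At an unadjusted p under 0.05 there were 28 of 36 genes upward and 0 downward, beside 1092 upward and 1015 downward of all 12541 genes. The largest slopes were those of Rrm2 (0.68, SE 0.16), Ung (0.62, SE 0.22) and Mcm5 (0.60, SE 0.15).

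This count depends on which libraries set the error. With only the 6 libraries of the lincRNA-p21 and control arms, 20 of 36 genes and 717 genes in the whole table had a slope that passed (limma), and leaving out any 1 Hnrnpk library also gave 20 of 36. Without the control library of day 9 the count was 17 of 36 and without that of day 12 it was 8. Over all genes the count ran from 0 to 730 with 1 library left out. With only the 6 libraries of the Hnrnpk and control arms, 0 of 36 passed for Hnrnpk. A call in 1 arm and none in the other therefore does not show that the arms differ.

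The slopes of the knockdown arms were compared directly, a test added after the values had been seen. For 0 of 36 genes, and 0% of all genes, did the lincRNA-p21 and Hnrnpk slopes differ (limma), with a median difference of -0.21. At an unadjusted p under 0.05, 8 of 36 were lower and 0 higher, beside 884 lower and 931 higher of all 12541 genes. Gins1 had the largest difference, -1.06 (SE 0.17, limma adjusted p = 0.241), followed by Rfc4 at -0.61 (SE 0.16, limma adjusted p = 0.248) and Orc1 at -0.56 (SE 0.14, limma adjusted p = 0.248). With only the 6 libraries of the knockdown arms 1 of 36 differed.

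The promoters of the 36 genes, whether called or not, were read from RefSeq sequence (GRCm38.p6, 250 bases before to 50 after each start). Entries were found for 31 of 36 genes, 36 entries in all; Ccne2, Mcm4, Gins1, Gins2 and Pole had none. E2F factors bind short GC-rich sites, searched here as TTTCGCGC, TTTGGCGC, TTTCCCGC and TTTGCCGC on both strands. Such letters stood in 12 of 36 entries (33.3%), against 3.87% of the entries of the table's genes and 2.26% of all entries. The CCAAT box, the letters CCAAT on either strand, stood in 58.3%, against 37.6% and 37.4%. The letters TTTGAA, the core of the CHR element of mitotic promoters, stood in 11.1%, against 11.8% and 17.9%. A match is a description and not a binding site.

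The 200 bases before the start of 4 genes show how far the members differ in this. Capitals mark E2F letters, and positions count back from -1, the base before the start. Mcm5 (chr8:75109309-75109508, plus strand) holds a pair of overlapping matches that begin at -153 and -149. Mcm6 (chr1:128359706-128359905, minus strand) holds 3, of which an overlapping pair starts at -110 and the last stands at -47, and Pola1 (chrX:93632156-93632355, minus strand) holds 1 at -138. Mcm10 (chr2:5012792-5012991, minus strand) holds none, and the letters CCAAT stand in it 2 times on its printed strand or the other.
Mcm5: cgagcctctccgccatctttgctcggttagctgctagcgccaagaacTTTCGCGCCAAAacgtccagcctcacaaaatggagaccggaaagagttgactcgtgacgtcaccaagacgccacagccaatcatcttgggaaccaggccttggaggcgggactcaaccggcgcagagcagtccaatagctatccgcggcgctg
Mcm6: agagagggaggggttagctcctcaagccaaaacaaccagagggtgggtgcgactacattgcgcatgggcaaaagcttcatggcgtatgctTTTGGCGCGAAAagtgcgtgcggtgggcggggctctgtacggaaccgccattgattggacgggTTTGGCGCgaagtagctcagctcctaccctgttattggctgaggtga
Pola1: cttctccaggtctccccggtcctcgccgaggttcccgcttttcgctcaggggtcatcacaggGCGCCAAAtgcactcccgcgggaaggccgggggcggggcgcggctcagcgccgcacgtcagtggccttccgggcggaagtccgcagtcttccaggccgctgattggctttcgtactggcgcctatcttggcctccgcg
Mcm10: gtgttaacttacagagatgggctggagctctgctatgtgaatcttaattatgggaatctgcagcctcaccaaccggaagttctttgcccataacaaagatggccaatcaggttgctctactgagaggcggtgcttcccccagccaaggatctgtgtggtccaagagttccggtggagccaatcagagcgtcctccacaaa
As a description of the slopes in the Hnrnpk arm, of 12 genes with a match 7 were called, with a median slope of 0.66, and of 19 without one 14 were called, with a median of 0.63. Some windows do not reach the gene start of the coordinates used here. The E2f1 window ends at 154569676, inside the gene, whose minus strand start is at 154569892. The Mcm10 window ends in the letters TTTGGCG, all but the last of the searched TTTGGCGC, and the next base was not read. A gene without a match may therefore hold one outside its window.

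Between days, with the arms as blocks, few of the genes were called. From day 6 to day 9, 3 of 36 genes rose and 1 fell (limma, adjusted p under 0.05), where 18.9% of all genes rose and 21% fell, and the median over the 36 was 0.20. Rfc4, a clamp loader subunit, had control values of 328.5, 627 and 399 on days 6, 9 and 12, Hnrnpk arm values of 203, 731 and 790 and lincRNA-p21 arm values of 387, 617 and 627.5. In all arms the day 6 library was the lowest, and the rise to day 9 was 1.12 (SE 0.27, limma adjusted p = 0.0121). Rfc4 was also higher on day 12 than on day 6, by 0.96 (SE 0.27, limma adjusted p = 0.0188).

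Rpa2, a subunit of the single-strand binding protein, had control values of 1105.5, 1240.5 and 776, Hnrnpk arm values of 776, 1453.5 and 1324 and lincRNA-p21 arm values of 926.5, 1502 and 1173.5. Day 9 held the highest value in each arm, and the rise from day 6 was 0.58 (SE 0.20, limma adjusted p = 0.0472). Pola1, the catalytic subunit of polymerase alpha, rose by 0.57 (SE 0.18, limma adjusted p = 0.0369). It had control values of 2063, 2112 and 1622, Hnrnpk arm values of 1184.5, 2119 and 1734.5 and lincRNA-p21 arm values of 1263, 2258 and 1889.5, so the control arm hardly took part in that rise.

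Ccne2, a second gene of cyclin E, was the gene that fell. It had control values of 1058, 643 and 584, Hnrnpk arm values of 885, 718.5 and 545 and lincRNA-p21 arm values of 1000.5, 790 and 698. In all arms the values went down at each step, and every day 6 library was above every later one. The fall was 0.45 to day 9 (SE 0.11, limma adjusted p = 0.0141) and 0.68 to day 12 (SE 0.11, limma adjusted p = 0.00143). The day 9 calls depend on single libraries: without the control library of day 9 the count was 0 of 36, without the Hnrnpk or the lincRNA-p21 library of day 9 it was 1, without the Hnrnpk or the lincRNA-p21 library of day 6 it was 2, and without the control library of day 6 it was 22. Over all genes the count was 5008 with all libraries and ran from 1778 to 5605 with libraries or arms left out. The share of all genes at each single setting is not given.

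From day 9 to day 12, 0 of 36 genes passed in either direction (limma), where 0.526% of all genes rose and 0.128% fell. At an unadjusted p under 0.05 there were 0 higher and 4 lower, beside 881 higher and 888 lower of all 12541 genes. The median was -0.30, beside -0.03 for all genes. Rrm2, the regulated subunit of ribonucleotide reductase, had control values of 7054, 4001 and 2415, Hnrnpk arm values of 4690.5, 5890 and 3494.5 and lincRNA-p21 arm values of 5152, 6260 and 4537. Each arm had its lowest value on day 12, and the difference from day 9 of -0.65 (SE 0.24) did not pass (limma, adjusted p = 0.295). Next in size were E2f2 at -0.53 and Tk1 at -0.48. With only the 6 libraries of those days 6 of 36 fell (limma). Over all genes, 82 were called with all libraries. That count ran from 0 to 833 under the alternatives that left out no single library or arm, this one among them.

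From day 6 to day 12, 1 of 36 genes rose (Rfc4) and 2 fell (Ccne2 and Rrm2), where 22.3% of all genes rose and 27% fell (limma). Rrm2 fell by 0.72 (SE 0.24, limma adjusted p = 0.0373). Without the Hnrnpk library of day 6 there were 10 calls, 9 of them falls, and without the control library of day 6 there were 8, 6 of them rises. Over all genes the count was 6181 with all libraries and ran from 3073 to 6225 with libraries or arms left out, without a share for each setting. With each of the 9 libraries and 3 arms left out in turn, Ccne2 was called all 12 times. Rfc4 was called 8 times, and its call ended without the Hnrnpk (0.65) or lincRNA-p21 (0.97) library of day 12 and without the Hnrnpk (0.48) or lincRNA-p21 (1.09) arm. Rrm2 was called 6 times. Its call ended without the control library of day 12 (-0.49), the Hnrnpk library of day 9 (-0.72) or 12 (-0.76), the lincRNA-p21 library of day 9 (-0.72), the control arm (-0.30) or the lincRNA-p21 arm (-0.98).

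**Figure D4:**
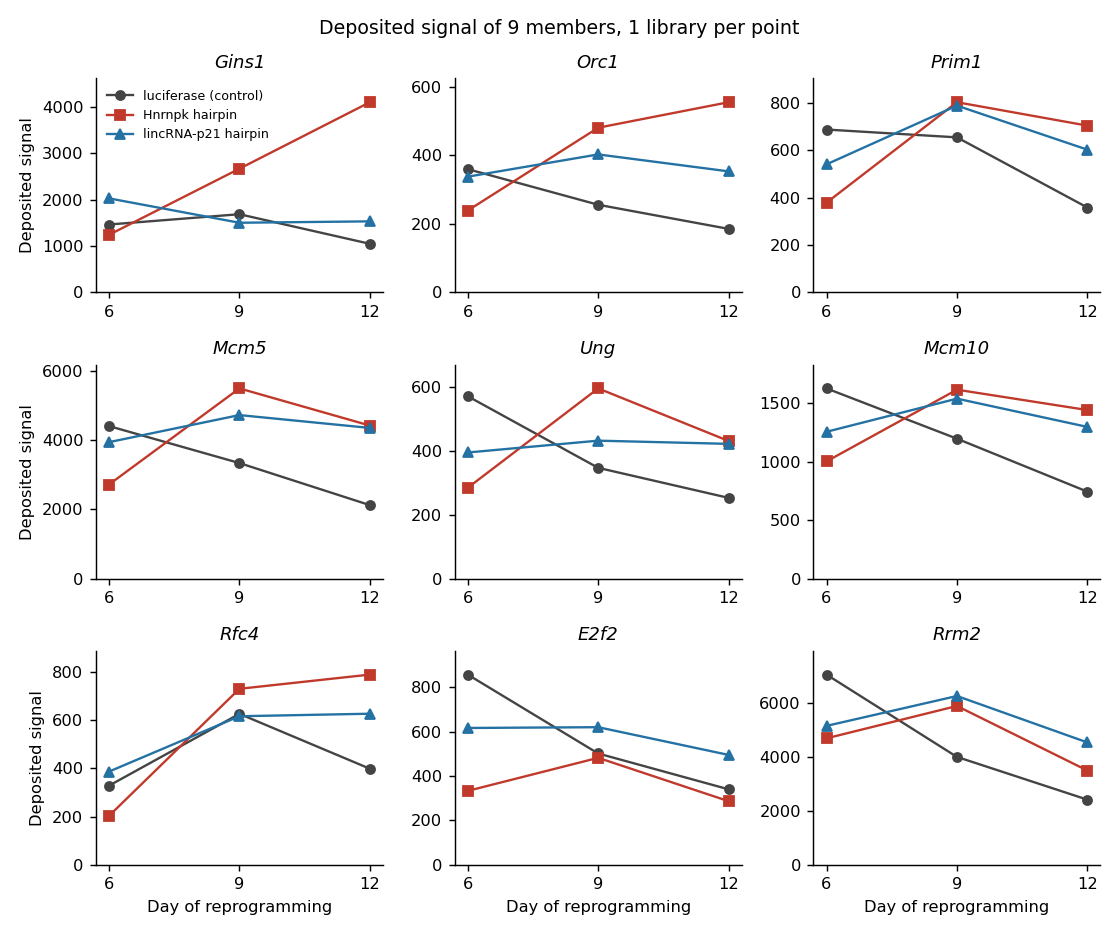
Deposited signal of 9 of the genes by day, 1 point per library, with the arms as lines and each y axis starting at 0. In Gins1 and Orc1 the Hnrnpk arm is highest on day 12, at 4097.5 and 555.5, while in E2f2 it lies below the other arms on each day.

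The rest of the pathway was read from 5 lists of 83 genes in all. Against control in the Hnrnpk arm, 29 of 83 had a slope that passed upward and 4 downward (limma), where 5.06% of all genes passed upward and 4.3% downward, with a median of 0.32 beside -0.01 for all genes. The downward count is near the share of all genes. The downward genes were Ccnd2, Rb1, Cdkn2b and Rrm2b, which encode a D-type cyclin, the retinoblastoma pocket protein, the inhibitor p15 and the p53-inducible reductase subunit. Fork enzymes outside the 36 gave 8 of 20 upward and 0 downward, origin and helicase factors 6 of 17 and 0, nucleotide and chromatin supply 8 of 18 and 1, cyclins, kinases and pocket proteins 6 of 21 and 2, and CDK inhibitors 1 of 7 and 1.

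Geminin (Gmnn), which blocks Cdt1 after licensing, had control values of 596.5, 1025 and 622 and Hnrnpk arm values of 315.5, 1316.5 and 1244. It went from below control to above it, with a slope of 0.94 (SE 0.13, limma adjusted p = 0.018). The histone chaperone gene Nasp had control values of 4275.5, 3811 and 2349 and Hnrnpk arm values of 2295, 7069 and 6129, with a slope of 1.14 (SE 0.17, limma adjusted p = 0.0196). Ccna2, encoding the S phase cyclin A2, had 0.87 (SE 0.16, limma adjusted p = 0.0237). Rb1, which holds E2F factors in check, had -0.73 (SE 0.12, limma adjusted p = 0.0237), from control values of 4340, 2965.5 and 4170.5 and Hnrnpk arm values of 5511.5, 2611 and 1932.

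In the averages over the days 2 of 83 were called higher and 2 lower between the Hnrnpk and control arms (limma), shares below the 5.58% and 6.94% of all genes. The 4 genes are given as single values. Cdkn2b rose by 1.09 (SE 0.21, limma adjusted p = 0.0134), while Cdkn1b, encoding p27, fell by 0.62 (SE 0.15, limma adjusted p = 0.0286) and Cdkn2d, encoding p19, fell by 0.46 (SE 0.11, limma adjusted p = 0.032). Cdkn1b had control values of 2306, 2351 and 2617 and Hnrnpk arm values of 1076.5, 1693 and 2131.5, all 3 below all 3 controls. The fourth, Ctps, which makes CTP, rose by 0.42 (SE 0.10, limma adjusted p = 0.0332). Cdkn1a, encoding p21, had control values of 12063.5, 11815 and 11815 and Hnrnpk arm values of 15118, 11172.5 and 11221, so it was above control on day 6, when all 36 genes were below, and slightly below on the later days. The lincRNA-p21 arm took a similar course in Cdkn1a, at 14594, 11286.5 and 11176. Its day 6 difference from control was 0.27, beside 0.33 in the Hnrnpk arm. The Cdkn1a slope in the Hnrnpk arm of -0.20 (SE 0.12) was not called (limma, adjusted p = 0.287).

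Genes of mitosis were also read. Of 25 genes 21 had a slope that passed upward in the Hnrnpk arm (limma), with a median of 0.71, where 5.06% of all genes passed upward. On day 6 all 25 were below control (52.5% of all genes) and on day 12 all 25 above it (48%). In the lincRNA-p21 arm all 25 slopes were above 0 too, beside 6095 of all 12541 genes, with a median of 0.52. There 0 passed (limma), and 24 were upward at an unadjusted p under 0.05, beside 1092 of all 12541 genes. Ccnb1, encoding cyclin B1, had control values of 2640, 3247.5 and 1950 and Hnrnpk arm values of 1748, 5629 and 6324, with a slope of 1.14 (SE 0.11, limma adjusted p = 0.0167). Sources used here do not say how reads matching processed gene copies were assigned, so its value is uncertain.

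Markers of other cell states also differed between days and arms. The 10 pluripotency markers examined, all in the table, had control sums of 309.5, 808 and 1045.5 on days 6, 9 and 12, Hnrnpk arm sums of 332, 5487 and 10847.5 and lincRNA-p21 arm sums of 299, 2229.5 and 6760.5. On day 6 Lin28a was at 0 in the Hnrnpk arm, and Dppa4 and Dnmt3l were at 0 in the control arm. The 8 epithelial markers had control sums of 3369.5, 11069.5 and 16027, Hnrnpk arm sums of 3938.5, 18184.5 and 33990.5 and lincRNA-p21 arm sums of 2094.5, 8745 and 15386. Sums are set mostly by the genes of high signal. As the median over the 8 genes, each relative to its own mean (log2), the control arm went -2.32, 0.48 and 0.89. The Hnrnpk arm went -1.78, 1.36 and 2.03, and the lincRNA-p21 arm -2.60, 0.06 and 1.33. On day 12 the lincRNA-p21 arm was thus below control in the sum and above it in the median. Cd68 was highest in the Hnrnpk library of day 6, at 780 against 120.5 in the control library of that day. The part of these shifts in the slopes of the 36 genes was not tested.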

How the data were processed

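RNA from 9 libraries was measured by sequencing on an Illumina platform, per the labels' protocols. The authors deposited 1 table of 12550 genes in a normalized signal whose scaling the sources used here do not give; build mm10, Bowtie 1.0.1 and RSEM 1.2.12 are listed, without roles, per the submitters' processing notes. Column totals differ by 0.0252%, library medians by 0.0208 on the log2 scale, 62.8% of values are whole, the highest value is 118715, and 0 value columns belong to no library. The depth per library is unknown, and the sources used here do not give the number of replicates merged.

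Values were taken as log2(signal + 10) for the 12541 genes with a mean of at least 20 (9 below), and tested in R 4.3.3 with limma 3.58.1. The model had arm and day terms (4 residual degrees of freedom), or for slopes also a linear arm by day term per 3 days (2 residual), with an intensity trend and Benjamini-Hochberg adjustment over all genes at 0.05. There is 1 library per arm and day. In the model without a slope term, p-values measure how far arm differences vary between days, and day differences between arms. For slopes they measure how far the arm differences depart from a straight line over the days. Neither is the spread between cultures, and either may be technical. Differences within a day have no test; 1.5-fold is used to describe them. Tests were tested on simulated data. Coordinates are GENCODE M21 on mm10 (12470 identifiers matched); 23 symbols shared by several entries were kept apart by identifier.

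The genes and lists were chosen with earlier results of these data known. All 36 genes are accounted for by role. Library values are given for genes called in a comparison (the largest first, up to 6 for slopes), or where under 3 passed, for the genes whose weakest day or arm differed the most, for the genes nearest the threshold, and for up to 3 called genes of each other list. Of these, 1 gene is counted in its list but not reported here by name. Ccne1, Cdkn1a and Cd68 values were added after they were seen. Alternatives were other pseudocounts, filters, centring and moderation, other models, and leaving out libraries, days or arms.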

Additional observations from a re-analysis of the deposited data

Results flagged for a closer look

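The difference between the Hnrnpk and control arms was not the same on all days for the genes below, by the test of the slope (log2 difference gained per 3 days, limma, adjusted p under 0.05). Among the 36 genes, the slopes of origin licensing genes were 1.05 for Orc1, 0.52 for Orc6, 0.77 for Cdc6, 0.64 for Mcm2, 0.71 for Mcm3, 0.56 for Mcm4, 0.88 for Mcm5, 0.54 for Mcm6 and 0.76 for Mcm7. Helicase activation gave 0.82 for Mcm10, 0.65 for Cdc45 and 1.10 for Gins1. At the fork the slopes were 0.90 for Prim1, 0.58 for Pcna, 0.70 for Rfc3, 0.82 for Rfc4, 0.63 for Rpa2 and 0.60 for Fen1. The other members were Ccne1 at 0.55, Tyms at 0.72, Tk1 at 0.72, Slbp at 0.63 and Ung at 0.86.

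Outside the 36 genes, downward slopes were -0.73 for Rb1 and -0.61 for Cdkn2b. Upward slopes of G1 and S phase regulators were 0.87 for Ccna2, 0.74 for E2f8 (a repressing E2F factor) and 0.79 for Cdkn1c (the inhibitor p57). Origin factors gave 0.94 for Gmnn, 0.66 for Ticrr and 0.62 for Recql4, and polymerase subunits 0.66 for Pola2, 0.67 for Prim2 and 0.75 for Pole2. Supply genes gave 0.85 for Chaf1b and 1.14 for Nasp, and mitotic genes 1.14 for Ccnb1, 0.97 for Birc5 and 0.98 for Tpx2. All rest on 3 libraries per arm, and for the 36 genes as a group the calls end without the control or the Hnrnpk library of day 6. Every call listed here, inside and outside the 36 genes, also ends without any 1 of the lincRNA-p21 libraries. Then 0 genes in the whole table were called (limma).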

How the results depend on the processing

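Under other pseudocounts, filters, median centring and moderation without an intensity trend, the counts of the 36 genes called stayed within 1.5 times the values above in every comparison, and 0 values changed sign while called. The labels give the libraries no replicate numbers, so the block that matches libraries across arms is the day; a model without the day term (no replicate block) gave 0 of 36 in each comparison of arms. Leaving out 1 library, day or arm moved the counts over 0 to 22 (Hnrnpk against control), 0 to 2 (lincRNA-p21 against control), 0 to 2 (lincRNA-p21 against Hnrnpk), 0 to 22 (day 9 against day 6), 0 to 1 (day 12 against day 9) and 1 to 10 (day 12 against day 6). Leaving out 1 library moved the counts of slopes over 0 to 33 (Hnrnpk), 0 to 20 (lincRNA-p21) and 0 to 3 (lincRNA-p21 against Hnrnpk). With only the 6 libraries compared, the counts were 1 for lincRNA-p21 against Hnrnpk, 6 for day 12 against day 9, and for the slopes 0 (Hnrnpk), 20 (lincRNA-p21) and 1 (lincRNA-p21 against Hnrnpk). The cause was not tested, apart from the loss of libraries that estimate the error. Read as a step between day 6 and the later days instead of a line, a choice made after seeing the data, 27 of 36 were called in the Hnrnpk arm and 0 in the lincRNA-p21 arm. Except where a count over all genes is given with it, a count under an alternative has no share of all genes beside it. Such counts describe how far the calls depend on the libraries and the model, and not the 36 genes against the rest. Over all genes, counts of calls ran over these ranges, first with libraries, days or arms left out and then under the other alternatives: Hnrnpk against control 1570 (25 to 3001, 1 to 1605), lincRNA-p21 against control 1 (0 to 175, 0 to 13), lincRNA-p21 against Hnrnpk 409 (0 to 959, 1 to 646), day 9 against day 6 5008 (1778 to 5605, 3502 to 5023), day 12 against day 9 82 (0 to 421, 0 to 833) and day 12 against day 6 6181 (3073 to 6225, 4498 to 6189). For slopes they were 1173 (0 to 2789, 0 to 1201) for Hnrnpk, 0 (0 to 730, 0 to 717) for lincRNA-p21, and 0 (0 to 313, 0 to 11) between the knockdown arms.

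The design limits what can be said: there is 1 library per arm and day, 1 hairpin per target, an unknown depth and an unknown number of merged replicates. Without depth, counting error in low genes could not be separated from other spread.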

Other observations

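Of the 83 other pathway genes, 9 rose and 17 fell from day 6 to day 12 with the arms as blocks (limma, adjusted p under 0.05), shares below the 22.3% and 27% of all genes. Single values follow for some of them. From day 6 to day 12 the repressing E2F genes fell, E2f7 by 1.37 (SE 0.24, limma adjusted p = 0.00199) and E2f8 by 1.36 (SE 0.26, limma adjusted p = 0.003), and so did Cdkn2c, encoding the inhibitor p18 (by 1.13, SE 0.13, limma adjusted p = 0.00029). The inhibitor locus Cdkn2a, which encodes p16 and p19Arf, rose by 1.21 (SE 0.14, limma adjusted p = 0.000221), from 2523.5, 2379.5 and 2669.5 on day 6 in the control, Hnrnpk and lincRNA-p21 arms to 6033.5, 5964 and 5570 on day 12. The values of the 3 arms were close on both days, and every day 12 library was above every day 6 library.

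Orc5, a subunit of the origin recognition complex outside the 36 genes, rose by 1.37 from day 6 to day 12 (SE 0.19, limma adjusted p = 0.000539). It had control values of 1532.5, 5123.5 and 3534.5, Hnrnpk arm values of 1274, 3499.5 and 4595 and lincRNA-p21 arm values of 2315.5, 4746 and 4863. Top1, encoding topoisomerase I, fell by 1.22 (SE 0.17, limma adjusted p = 0.000652), and its 3 day 6 libraries (13084, 9524.5 and 12602) were above all 6 later ones.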
